A study of Mus musculus with 2 samples.

Results

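The microRNA genes Mir23, Mir27 and Mir24 lie side by side at 2 places in the mouse genome, as Mir23a, Mir27a and Mir24-2 on chromosome 8 and as Mir23b, Mir27b and Mir24-1 on chromosome 13. They were chosen by their GENCODE M21 gene names, and all 6 were found among the 2202 microRNA genes counted in the gastrocnemius, the large calf muscle. The donors were adult males, 8 to 10 months old, of a strain given as 5xFAD/CAST, and RNA under 30 bases was sequenced. 5xFAD is a transgenic line that models amyloid deposition in the brain, with transgenes driven by a neuronal promoter, and CAST mice are inbred from wild stock. There were 2 libraries of this 1 group, numbered as biological replicates 1 and 2. They came from separate tissue samples with the same donor record, and neither separate animals nor the presence of the transgene is stated, so the spread between them may be partly technical. No other condition was sampled, so the comparisons are between the genes, between the clusters and between the 2 libraries.

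A microRNA is cut from a hairpin in a longer transcript, and its arms, named 5p and 3p, give short mature RNAs that guide repression of messenger RNAs. Bases 2 to 8 of the mature RNA, the seed, set most of its targets. Neighbouring hairpins such as these are usually made from a shared primary transcript and then processed separately, so their mature levels need not be equal. In mouse muscle, miR-23a is known to restrain ubiquitin ligases of muscle atrophy, miR-27b to repress Pax3 in activated satellite cells, and miR-24 to favour myogenic differentiation. Both clusters are also known for their part in the growth of blood vessels, so they are not restricted to muscle fibres.

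The mature RNAs of the family are shown to make clear how far reads can be assigned to a locus. Each is given 5′ to 3′ from RefSeq (GRCm38.p6), plus strand, with the seed in capitals. Each of the 6 genes was matched to at least 1 RefSeq mature sequence, and miR-23b-3p is named only.
miR-23a-3p (chr8:84208563-84208583): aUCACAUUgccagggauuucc
miR-27a-3p (chr8:84208727-84208747): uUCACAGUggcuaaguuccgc
miR-27b-3p (chr13:63300760-63300780): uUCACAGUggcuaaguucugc
miR-24-3p (chr8:84208875-84208896 and chr13:63301251-63301272): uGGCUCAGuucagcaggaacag
miR-24-2-5p (chr8:84208839-84208860): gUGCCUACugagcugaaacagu
miR-24-1-5p (chr13:63301213-63301235): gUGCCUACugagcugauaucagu

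The 3p arms of the Mir27 paralogues share their seed and 20 of 21 bases. They differ by C19U, counted from 1 at the 5′ end with the base of miR-27a-3p first. The first 18 bases of miR-27a-3p therefore occur in both hairpins, and a read that starts at its first base has to reach base 19 to be assigned. The first 18 bases of miR-23a-3p likewise occur in the Mir23b hairpin. The 5p arms are less alike, with 14 of 22 bases shared between miR-27a-5p and miR-27b-5p. The seeds of miR-23a-3p and miR-27a-3p are the same at 6 of 7 positions and differ by U7G, in the same numbering.

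For Mir24 the 3p arm is the same RNA from both loci. Its 22 bases were found whole at the other locus, while the other mature RNAs of the family that were searched, all but miR-23b-3p, were each found at 1 place among the 2202 annotated microRNA hairpins. The 5p arms of Mir24 share their first 16 bases and differ after that. The 2 hairpins are shown with their longest shared run, 28 bases, in capitals.
Mir24-2 (chr8:84208815-84208921): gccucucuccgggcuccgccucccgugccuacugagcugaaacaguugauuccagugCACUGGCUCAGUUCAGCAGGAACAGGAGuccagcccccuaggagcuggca
Mir24-1 (chr13:63301208-63301275): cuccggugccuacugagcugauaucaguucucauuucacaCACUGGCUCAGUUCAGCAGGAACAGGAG
The deposited counts hold only reads aligned to 1 place, and a read lying wholly inside the shared run aligns to both. Such reads are in no gene, so the counts of Mir24-2 and Mir24-1 are not a measure of miR-24-3p. Mir23a and Mir23b, and Mir27a and Mir27b, each share a run of 20 bases, so short reads can be lost there too. The number of reads lost at these loci was not measured.

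Mir23a (ENSMUSG00000065611.1) lies at chr8:84208518-84208592 and Mir27a (ENSMUSG00000065444.1) at chr8:84208672-84208758 of mm10, outside other annotated genes. Mir24-2 (ENSMUSG00000065541.1) overlaps an exon of the lincRNA Gm26532. On chromosome 13, Mir23b (ENSMUSG00000065599.2) lies at chr13:63300484-63300557, in an intron of the protein-coding gene 2010111I01Rik. Mir27b (ENSMUSG00000065475.2), at chr13:63300712-63300784, and Mir24-1 (ENSMUSG00000105904.1) overlap an exon of at least 1 transcript of the same gene. All 6 hairpins are on the plus strand, and those on chromosome 13 lie opposite an intron of Fancc. The chromosome 8 cluster spans 404 bases and the chromosome 13 cluster 792 bases, with the longest gap, 423 bases, between Mir27b and Mir24-1.

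**Figure D1:**
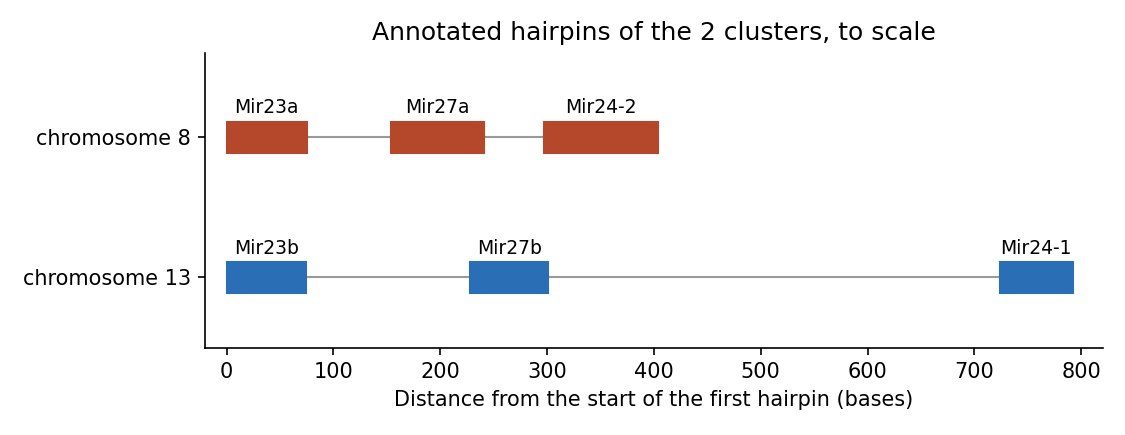
Annotated hairpins of the chromosome 8 (red) and chromosome 13 (blue) clusters, drawn to scale against distance in bases from the start of the first hairpin. The order of the genes is the same in both, and the chromosome 13 cluster is the longer at 792 against 404 bases.

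Replicate 1 held 6119818 reads and replicate 2 held 6632802, of which 1157420 and 1193393 were sense reads in microRNA genes. Reads aligned to several places made up 60.2% and 63.2% of the libraries. Levels are given as CPM, the counts scaled to a common total of sense reads, with exact Clopper-Pearson 95% intervals. These intervals cover counting error only. They take each read as independent, so PCR copies, which are not independent molecules, would make them too narrow. The muscle marker Mir206 was present at 32948 and 32931 CPM. Mir206 was the highest of the 10 striated muscle genes listed. Mir486 had 5152 and 3706 CPM, Mir499 381 and 465, and Mir208b 104 and 142. Mir1a-2 had 51.8 and 45.2 CPM, Mir133b 23.3 and 8.38, and Mir133a-1 20.7 and 5.03. Mir1a-1 had 12.1 and 7.54 CPM and Mir208a 11.2 and 18.4, while Mir133a-2 had 5 and 0 reads. Any read with more than 1 alignment is missing from these counts, so a low count need not mean little mature RNA. The 3 Mir124a genes and Mir9-2 and Mir9-3, known from neurons, had no read, and Mir9-1 had 0 and 1.

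Mir23a and Mir23b were abundant and close to each other in level. Mir23a, whose RNA is linked to protection from atrophy, had 30798 reads in replicate 1 and 42890 in replicate 2, or 26609 and 35940 CPM. Mir23b, its chromosome 13 paralogue, had 30676 and 36604 reads, or 26504 and 30672 CPM. Both were higher in replicate 2, and the values of the 2 genes overlapped. Their means were 31274 ± 6598 CPM and 28588 ± 2948 CPM (SD, n = 2), a difference of 2686 CPM that was smaller than either SD. Among all 2202 genes Mir23a ranked 11 and 8 in the 2 libraries, and Mir23b 12 and 11. All ranks here are by reads aligned to 1 place, so genes whose reads align to several places can rank too low.

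Mir27b stood above Mir27a. Mir27b, the satellite cell regulator, had 3838 and 4667 reads, or 3316 and 3911 CPM, with a mean of 3613 ± 421 CPM (SD, n = 2). Mir27a had 899 and 894 reads, or 777 and 749 CPM, with a mean of 763 ± 19.5 CPM. The groups of values did not overlap, and Mir27b had 4.27 times the reads of Mir27a in replicate 1 (95% interval 3.97 to 4.60) and 5.22 times in replicate 2 (4.86 to 5.61). Mir27b ranked 33 and 29 among all genes, and Mir27a 63 and 59.

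The Mir24 loci had few counted reads. Mir24-2 had 131 and 252 reads, or 113 and 211 CPM, with a mean of 162 ± 69.3 CPM (SD, n = 2). Mir24-1 had 110 and 118 reads, or 95.04 and 98.9 CPM, with a mean of 97.0 ± 2.71 CPM. Mir24-2 was the higher in both libraries, but the difference of the means, 65.2 CPM, was smaller than the SD of Mir24-2. These counts leave out every read of the shared 3p arm that aligned to both loci.

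**Figure D2:**
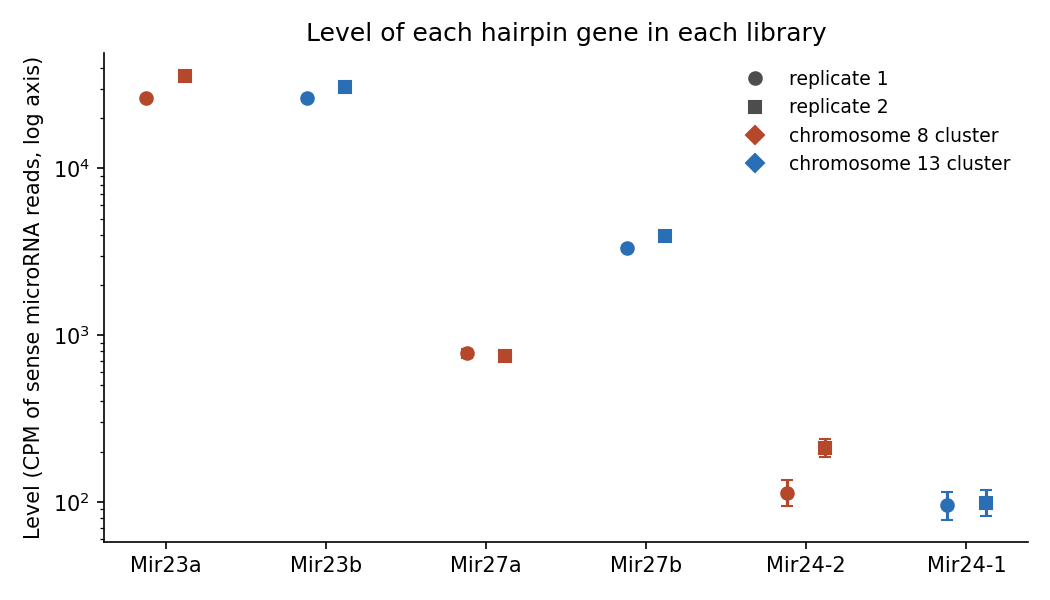
Level of each gene (CPM of sense microRNA reads, log axis) in replicate 1 (circles) and replicate 2 (squares), with exact 95% intervals for counting error and colours for the cluster. The Mir23 genes lie between 26504 and 35940 CPM, Mir27b between 3316 and 3911 CPM, Mir27a between 749 and 777 CPM, and the Mir24 genes between 95.04 and 211 CPM.

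The order of the 6 means was therefore Mir23a, Mir23b, Mir27b, Mir27a, Mir24-2 and Mir24-1. Mir23a was above Mir23b within each library, by 1.00-fold and 1.17-fold, but their values overlapped across libraries. The values of Mir24-2 and Mir24-1 did not overlap, though their difference was smaller than the SD of Mir24-2. The other steps were 7.91-fold, 4.74-fold and 4.70-fold between the means. The last of these is from Mir27a to Mir24-2, whose count leaves out 3p reads aligned to both loci. Reads were also divided by hairpin length, although a read covers a mature RNA and not a hairpin. Mir23a then had 410.6 and 571.9 reads per base and Mir23b 414.5 and 494.6, so that Mir23b was slightly the higher in replicate 1. Mir27b had 52.6 and 63.9 reads per base against 10.3 and 10.3 for Mir27a. Mir24-2 had 1.22 and 2.36 reads per base and Mir24-1 1.62 and 1.74, so their order reversed between the libraries on this scale.

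The share of the chromosome 8 locus in each paralogue pair compares the clusters without any scaling between libraries. Mir23a took 50.1% of the reads of Mir23a and Mir23b in replicate 1 (95% interval 49.7 to 50.5) and 54.0% in replicate 2 (53.6 to 54.3). The replicate 1 interval includes an even split and that of replicate 2 does not. Mir27a took 19.0% (17.9 to 20.1) and 16.1% (15.1 to 17.1) of the Mir27 reads, below an even split in both libraries. Mir24-2 took 54.4% (47.8 to 60.8) and 68.1% (63.1 to 72.8) of the assigned Mir24 reads. Over the clusters as wholes, chromosome 8 took 47.9% (47.5 to 48.3) and 51.5% (51.2 to 51.9). The clusters were thus near parity in summed reads, through their Mir23 genes, while the Mir27 pair leaned to chromosome 13 in both libraries.

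The pairs did not move together between the libraries. The ratio of Mir23a to Mir23b was 1.17 times as high in replicate 2 as in replicate 1 (exact conditional 95% interval 1.14 to 1.19). That of Mir24-2 to Mir24-1 was 1.79 times as high (1.26 to 2.54), and that of Mir27a to Mir27b was 0.818 times (0.738 to 0.907). The chromosome 8 share was thus higher in replicate 2 for Mir23 and Mir24 and lower for Mir27. These intervals cover counting error in 2 libraries and do not describe a condition.

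**Figure D3:**
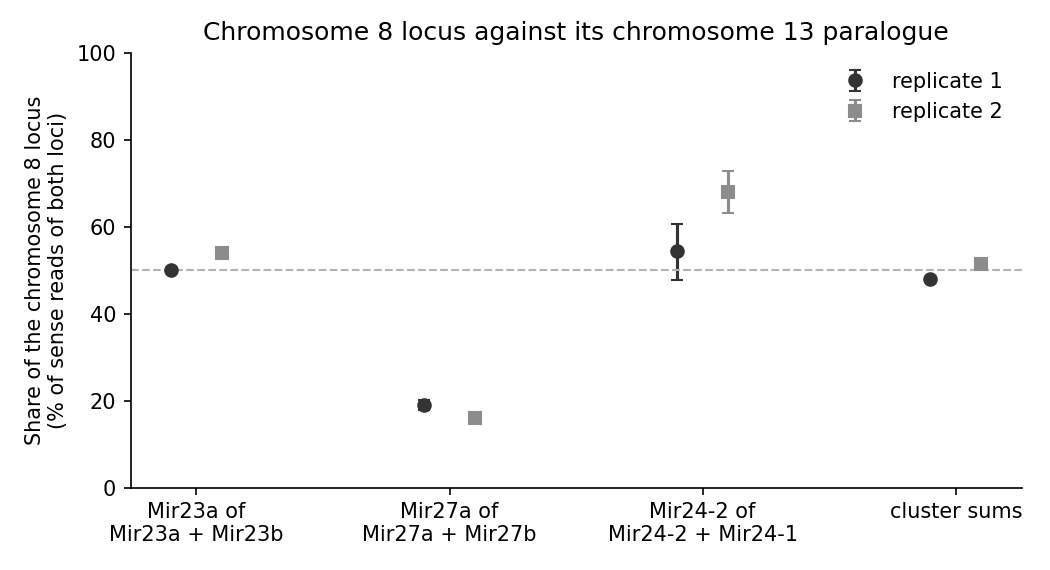
Share of the chromosome 8 locus (% of the sense reads of both loci) for each paralogue pair and for the cluster sums, in replicate 1 (dark circles) and replicate 2 (grey squares), with exact 95% intervals for counting error. The dashed line is an even split: Mir27a lies below it at 19.0% and 16.1%, and Mir23a lies at it or just above it at 50.1% and 54.0%.

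Within each cluster the counted reads were unevenly divided, most in Mir23 and fewest in Mir24. The Mir24 counts leave out every read of the shared arm that aligned to both loci. The shares of Mir24, and the ratios over Mir24, are therefore not a measure of the level of that mature RNA. On chromosome 8, Mir23a took 97.1% ± 0.448 of the cluster's reads (SD, n = 2), Mir27a 2.43% ± 0.562 and Mir24-2 0.492% ± 0.114. On chromosome 13, Mir23b took 88.5% ± 0.112, Mir27b 11.2% ± 0.135 and Mir24-1 0.301% ± 0.0231. Mir23b had 7.99 times the reads of Mir27b in replicate 1 (95% interval 7.73 to 8.27) and 7.84 times in replicate 2 (7.61 to 8.09), with overlapping intervals. Mir23a had 34.3 times the reads of Mir27a in replicate 1 (32.1 to 36.6) and 48.0 times in replicate 2 (44.9 to 51.3). Over Mir24, the ratio was 279 and 310 for Mir23b (231 to 339 and 259 to 375), and 235 and 170 for Mir23a (198 to 281 and 150.4 to 193). The intervals of the libraries thus overlapped on chromosome 13 and not on chromosome 8. Together the 6 genes held 5.74% and 7.16% of the sense microRNA reads aligned to 1 place.

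The steep slope was compared with that of other clusters, taken as microRNA genes on the same strand with gaps of at most 10000 bases and at least 3 genes at 2 CPM or more in both libraries. This definition was made after the levels were seen, and gives a description with no test. Of 13 such clusters, those led by Mir23b and Mir23a had the second and the third largest ratio of highest to lowest mean level, 295-fold and 193-fold on CPM, after the cluster led by Mir322 at 297-fold. The median over the 13 was 61.4-fold. In both Mir23 clusters the lowest gene was the Mir24 locus, whose 3p arm is shared. The part of this sharing in the slope was not tested.

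**Figure D4:**
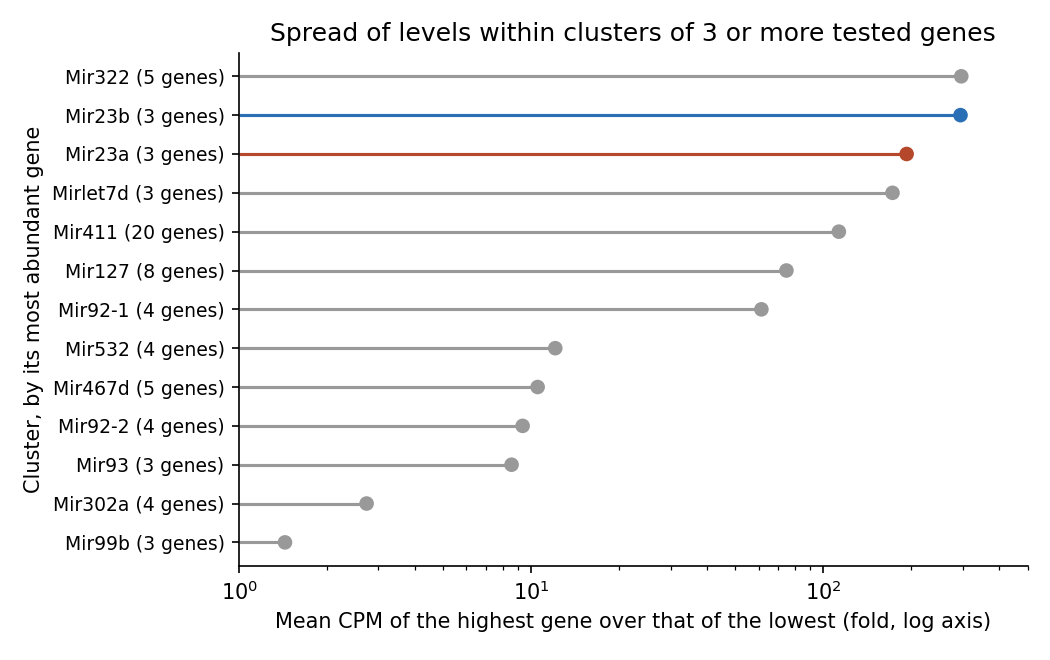
Mean CPM of the highest gene over that of the lowest (fold, log axis) in each of the 13 clusters with 3 or more genes at 2 CPM or more in both libraries, named by the most abundant gene, with the number of such genes. The clusters led by Mir23b (blue, 295-fold) and Mir23a (red, 193-fold) lie near the top, and that led by Mir99b is the lowest at 1.44-fold.

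The strand opposite the Mir24 hairpins carries annotated genes of its own. Mir3074-2 (chr8:84208825-84208907) had no sense read in either library, so its level could be up to 2.59 CPM in replicate 1 and, in replicate 2, up to 2.51 CPM (by 3 counts of each total). Mir3074-1 (chr13:63301199-63301283) had 14 and 11 sense reads, or 12.1 and 9.22 CPM. In the column that counts both strands together, Mir24-2, Mir24-1 and both Mir3074 genes were listed at 0, since a read over 2 overlapping genes is counted in neither. The Mir24 values therefore rest on the strand-specific column. For Mir23a, Mir23b, Mir27a and Mir27b both columns gave the same counts, with no read on the opposite strand.

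Few other counted genes carry the same seeds, by a search limited to RefSeq mature RNAs whose gene was counted here. The seed of miR-24-3p was found in 4 other RefSeq mature RNAs, from Mir6413, Mir6410, Mir6369 and Mir5124b, and all 4 genes had no read. The seeds of miR-23a-3p and miR-27a-3p were found in no searched RefSeq mature RNA outside the family. The seed of miR-27 does occur one base earlier in miR-128-3p, a microRNA known from nerve and muscle, at bases 1 to 7, in capitals here.
miR-128-3p: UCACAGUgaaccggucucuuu
Mir128-1 had 295 and 420 CPM and Mir128-2 41.5 and 45.2 CPM, below both Mir27 genes in both libraries.

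By level over the 2 libraries, the nearest other gene to both Mir23a and Mir23b was Mir206, the skeletal muscle microRNA, at a distance of 0.33 and 0.33 in log2(CPM + 1). The nearest to Mir27b was Mir423, at 0.12, and to Mir27a Mir185, at 0.14. For Mir24-2 it was Mir25, at 0.37, and for Mir24-1 it was Mir483, at 0.21. With 2 libraries this measures a like level and little of a shared pattern.

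Last, the ratio of replicate 2 over replicate 1 was taken for each gene after TMM scaling. A two-sided exact binomial test with Benjamini-Hochberg adjustment over the 321 genes at 2 CPM or more in both libraries was used, and it compares these libraries and not conditions. With this scaling it called 5 of the 6 genes, each higher in replicate 2, where 37.4% of all tested genes were called, 18.7% higher and 18.7% lower. Mir24-2 was 2.31-fold higher (95% interval 1.86 to 2.87, exact binomial adjusted p = 1.2e-14). Mir23a was 1.67-fold higher (1.65 to 1.70), Mir27b 1.46-fold (1.40 to 1.52) and Mir23b 1.43-fold (1.41 to 1.45). The folds of Mir23a, Mir27b and Mir23b were 1.35, 1.18 and 1.16 with total counts, each below its interval with TMM. With TMM Mir27a was 1.19-fold higher (1.09 to 1.31, exact binomial adjusted p = 0.00070), and its ratio was 0.964 with total counts. Mir24-1, at 1.29-fold with an interval of 0.984 to 1.68, did not pass (exact binomial adjusted p = 0.14).

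The median log2 ratio of the 6 genes was 0.53 with TMM and 0.22 with total counts. Over all genes tested it was -0.01 with TMM, which by design places most genes near 0, and -0.30 with total counts. On chromosome 13 the 3 log2 ratios with TMM lay within 0.18 of each other, the narrowest range of the 13 clusters, and on chromosome 8 within 0.94. The clusters had 3 to 20 tested genes, and a range tends to widen with more genes. The interval of Mir24-1, 0.984 to 1.68-fold, holds the folds of Mir23b and Mir27b, and also those of Mir23a and Mir27a on chromosome 8. It is too wide to set the chromosome 13 genes apart. Total counts without TMM moved the median of all genes by -0.29. Mir27a then had a log2 ratio of -0.05 and did not pass, and 35 genes were called higher and 114 lower against 60 and 60 with TMM. With total counts 4 of the 6 genes were called, each higher, where 46.4% of all tested genes were called, 10.9% higher and 35.5% lower. When the edgeR exact test was run with a dispersion fixed at 0.01, which allows spread beyond counting error, 2 of the 6 passed, Mir23a (edgeR adjusted p = 0.0033) and Mir24-2 (edgeR adjusted p = 6.5e-05), both higher, where 16.5% of all tested genes were called, 9.03% higher and 7.48% lower. This test used the TMM sizes, so the folds are those given with TMM. Mir27b (edgeR adjusted p = 0.0504) and Mir23b (edgeR adjusted p = 0.0615) lay just beyond the threshold of 0.05.

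**Figure D5:**
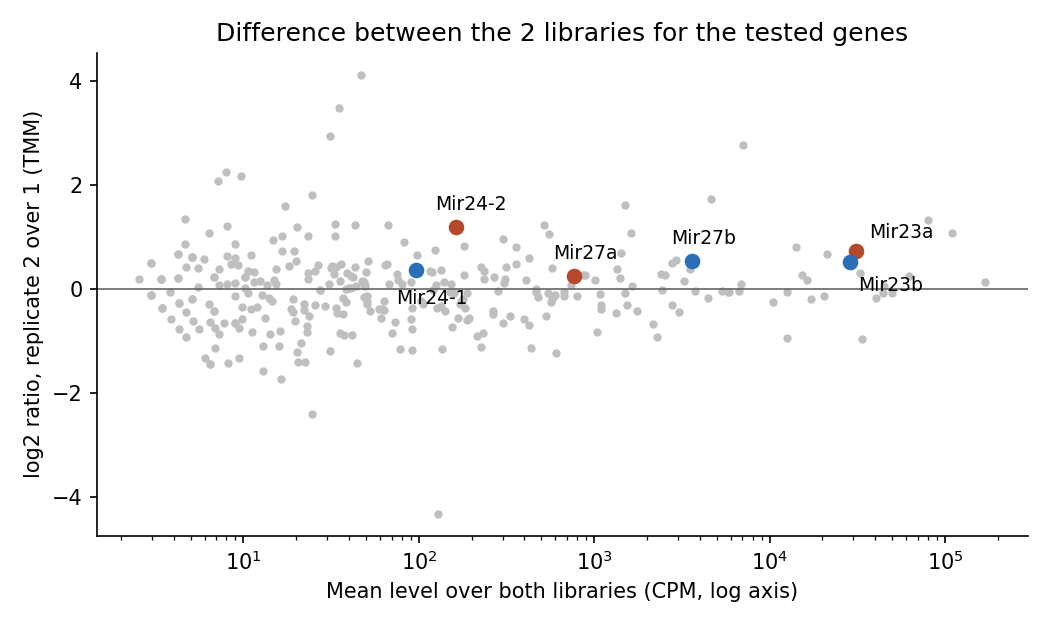
log2 ratio of replicate 2 over replicate 1 after TMM scaling against mean level (CPM, log axis) for the 321 tested genes (grey), with the chromosome 8 (red) and chromosome 13 (blue) genes named. All 6 lie above 0 with this scaling, from 0.25 for Mir27a to 1.20 for Mir24-2, and Mir27a lies at -0.05 with total counts only.

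Genes of the cell types and processes in which these clusters are known were set beside them, as counts in the same test. For each list, counts with TMM are followed by those with total counts. Of 10 striated muscle genes 9 were tested, of which 3 were higher and 2 lower in replicate 2, with a median log2 ratio of 0.11 with TMM. With total counts 2 were higher and 3 lower, and the median was -0.19. Of 9 endothelial and angiogenesis genes 7 were tested, with 3 higher, 3 lower and a median of -0.05, and with total counts 1 was higher and 3 lower, with a median of -0.35. Mir126a, the endothelial marker within that list, had 80768 and 137673 CPM and was 2.11-fold higher in replicate 2 (2.09 to 2.13). Mir221 and Mir222, a pair known for restraining vessel growth, were 2.34-fold and 2.74-fold higher in replicate 1. Of 13 satellite cell and myogenesis genes 11 were tested, with 4 higher, 2 lower and a median of 0.18. With total counts 3 were higher and 3 lower, and the median was -0.12.

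Markers of other cells were also tested. Of the 2 smooth muscle genes, Mir145a was lower in replicate 2, while Mir143 was 1.04-fold higher with TMM and lower in CPM, at 48618 and 40817, and with total counts both were lower. The 2 erythroid genes had ratios on opposite sides of 1. Mir144, with 9 and 65 reads, was higher, while the more abundant Mir451a, with 180 and 117 reads, had a fold of 0.780 (95% interval 0.612 to 0.989) and did not pass with TMM (exact binomial adjusted p = 0.092). With total counts 1 erythroid gene was higher and 1 lower. Of the 3 leukocyte genes, with TMM Mir150 was lower, at 1348 and 833 CPM. Mir223, at 76.0 and 46.9 CPM, and Mir142, at 60.5 and 67.9 CPM, did not pass, with log2 ratios of -0.38 and 0.47. With total counts Mir150 and Mir223 were lower and Mir142 did not pass. The liver gene Mir122 had 12 and 13 reads and did not pass with either scaling. Mir128-1 was 1.76-fold higher with TMM and 1.42-fold higher with total counts. In whole tissue, fewer cells of a type and less RNA per cell cannot be told apart, and the part of these cell types in the differences of the Mir23, Mir27 and Mir24 genes was not tested.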

How the data were processed

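The deposited files hold whole-number counts of reads per microRNA gene, not normalized by the authors, in 3 columns without a header: both strands, the sense strand and the antisense strand. Reads were counted on mm10 with GENCODE M21, per the deposited text descriptions. An aligner is not given in the sources used here. Of each file, 4 leading lines of read classes name no gene and stayed out of library sizes and tests. One of these classes holds the reads with several alignments, which no gene received.

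CPM were computed over the sense total. Genes at 2 CPM or more in both libraries were tested with TMM sizes from edgeR 4.0.16 (R 4.3.3) and an exact binomial test with scipy 1.17.1, at an adjusted p of 0.05, with a pseudocount of 1 CPM on the log2 scale. These steps were tested on simulated data with counting error only, which cannot show how they behave when the spread is wider. DESeq2 1.42.0 size factors, total counts, other filters, the column of both strands and the edgeR exact test were the alternatives. The genes named were the 6 members, genes overlapping them or sharing a seed, and the nearest gene to each by level, beside 10 gene lists. Other named genes were chosen after their values were seen. Members and lists were chosen with earlier results of these data known.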

Additional observations from a re-analysis of the deposited data

Results flagged for a closer look

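Reads on the strand opposite Mir24-1 numbered 14 in replicate 1 and 11 in replicate 2, above the 3 counts that a count of 0 allows, in a column that the levels do not use. They are the same number as the sense reads of Mir3074-1, which overlaps Mir24-1 on that strand. The other 5 genes had no opposite-strand read.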

How the results depend on the processing

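The calls of the exact binomial test kept their direction under DESeq2 size factors, no filter and the filter of 10 CPM. With total counts, the log2 ratio of Mir27a was -0.052. At a fixed dispersion of 0.01, the edgeR exact test called 53 genes in place of 120, and 2 of the 6 in place of 5. The counts, filter and TMM sizes were the same in both tests, and the edgeR test allows spread beyond counting error. The source of any such spread was not tested. Mir24-2 and Mir24-1 were at 0% of their clusters with the column of both strands, since they overlap a gene on the opposite strand, and Mir23a and Mir23b then held 97.6% and 88.8%. Per base of hairpin, Mir23a held 97.6% and Mir24-2 0.346% of the chromosome 8 cluster, and Mir23b 88.4% and Mir24-1 0.327% of the chromosome 13 cluster. On the same scale, chosen for the pairs after seeing the data, Mir27a held 15.1% and Mir24-2 50.3% of their pairs. Leaving out either library gives the share in the other, so Mir24-2 held 54.4% or 68.1% of its pair, and Mir27a 2.82% or 2.03% of the chromosome 8 cluster. No test of the ratio could be made without a replicate. The Mir24 genes could not be tested with the column of both strands or among genes without a shared mature sequence. Depth limits the Mir24 pair, whose share rests on 241 and 370 reads.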
